A study of Mus musculus with 16 samples.

Results

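The genes described here encode the carriers that move sugars, amino acids and monocarboxylates such as lactate across cell membranes, together with close relatives in the same solute carrier families. Members were chosen by name: every measured protein-coding gene whose symbol starts with Slc1a, Slc2a, Slc3a, Slc5a, Slc6a, Slc7a, Slc16a, Slc36a, Slc38a or Slc43a. This gave 103 genes of the 50600 in the count table, of which 68 had enough reads to be tested and 35 did not. Of those 35, 8 had no count in any library and the other 27 had at most 138 counts summed over all 16 libraries, among them Slc2a4, the insulin-regulated glucose carrier, with 52 counts. Slc7a6os has a matching symbol only as a neighbour on the opposite strand of Slc7a6 and is not known as a carrier.

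Slc2a genes encode the facilitative hexose carriers, and Slc16a genes include the proton-coupled lactate carriers. The Slc1a, Slc7a, Slc38a, Slc36a and Slc43a families include amino acid carriers, while Slc43a3 encodes a nucleobase carrier. Several Slc7a proteins reach the cell surface only as a pair with the heavy chain encoded by Slc3a2, and one such pair imports cystine in exchange for glutamate, which links amino acid transport to glutathione synthesis. In the brain, Slc2a5 is known as a microglial gene, Slc1a2 and Slc1a3 are known as the glutamate carriers of astrocytes, and immune cells are known to raise glucose and amino acid uptake when activated.

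The 16 RNA libraries came from sorted cells of male mice, 13 to 14 weeks of age, with 4 libraries for each of 4 groups. Microglia, sorted as CX3CR1-positive cells, came either from control brain or from the ischemic hemisphere. These mice had the genotype CX3CR1CreERT2:Rosa26-tdT, in which a tamoxifen-inducible Cre recombinase is driven by Cx3cr1 and the Rosa26 locus holds a tdTomato reporter. The sorted CD11c-eYFP-positive cells were from Tg(Itgax-Venus)1Mnz mice, either from the ischemic hemisphere or from spleen. In this line the promoter of Itgax (the gene of CD11c) drives a yellow fluorescent protein. The question stated for the series was which genes are particular to the infiltrating CD11c cells and which to microglia. Mouse line and sorted population go together in this design, so their effects cannot be told apart between microglia and CD11c cells, and the labels give no disease state for the spleen donors. The labels do not say that each library is a separate animal, so a p-value here covers only how far these libraries spread, which may be technical, and 1 brain and 1 spleen CD11c library carry the same number in their titles.

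Libraries held 31569304 to 48245164 counts, and 16345 genes passed the filter on low counts. Levels are given as CPM, counts per 1000000, scaled for library composition. The sum over 8 microglia markers was 36193 to 40742 CPM in control and 26939 to 30837 in ischemic microglia, 10598 to 11892 in brain CD11c cells and 1165 to 1668 in spleen. The sum over 9 dendritic cell markers was 731 to 1633, 302 to 578, 10593 to 27143 and 9457 to 15172 CPM in that order. The brain CD11c cells thus also carried microglia markers, and 4 of 4 monocyte markers were higher in them than in ischemic microglia. Replicates 1 and 2 of that group stood apart from replicates 3 and 4 on the third principal component (5.08% of the variance). Fits with 1 pair alone, or with each pair, are given for some genes only. A result given without them may also depend on the pairs. In sorted bulk samples, fewer cells of a type and less RNA per cell cannot be told apart.

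Together the 103 genes made up 4867 ± 235 CPM in control and 5513 ± 180 in ischemic microglia (SD, n = 4 each). Among CD11c cells, they made up 4694 ± 488 CPM in brain libraries and 2477 ± 129 in spleen libraries (SD, n = 4 each). The spleen libraries summed to 2492, 2335, 2438 and 2644 CPM, all below every brain library. Most of each sum came from few genes: 12 members averaged 100 CPM or more over all libraries, 24 averaged 10 to 100, and the other 32 tested members were below 10. On a scale of CPM per kilobase of exon, which allows genes to be compared, Slc2a5 (188), Slc3a2 (151) and Slc7a8 (136) led in control microglia. Slc3a2 led in each of the other 3 groups, followed by Slc7a8 in ischemic microglia (119), by Slc6a6 in brain CD11c cells (75.2) and by Slc1a5 in the spleen (49.7), where Slc2a5 ranked 63 of 103.

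**Figure D1:**
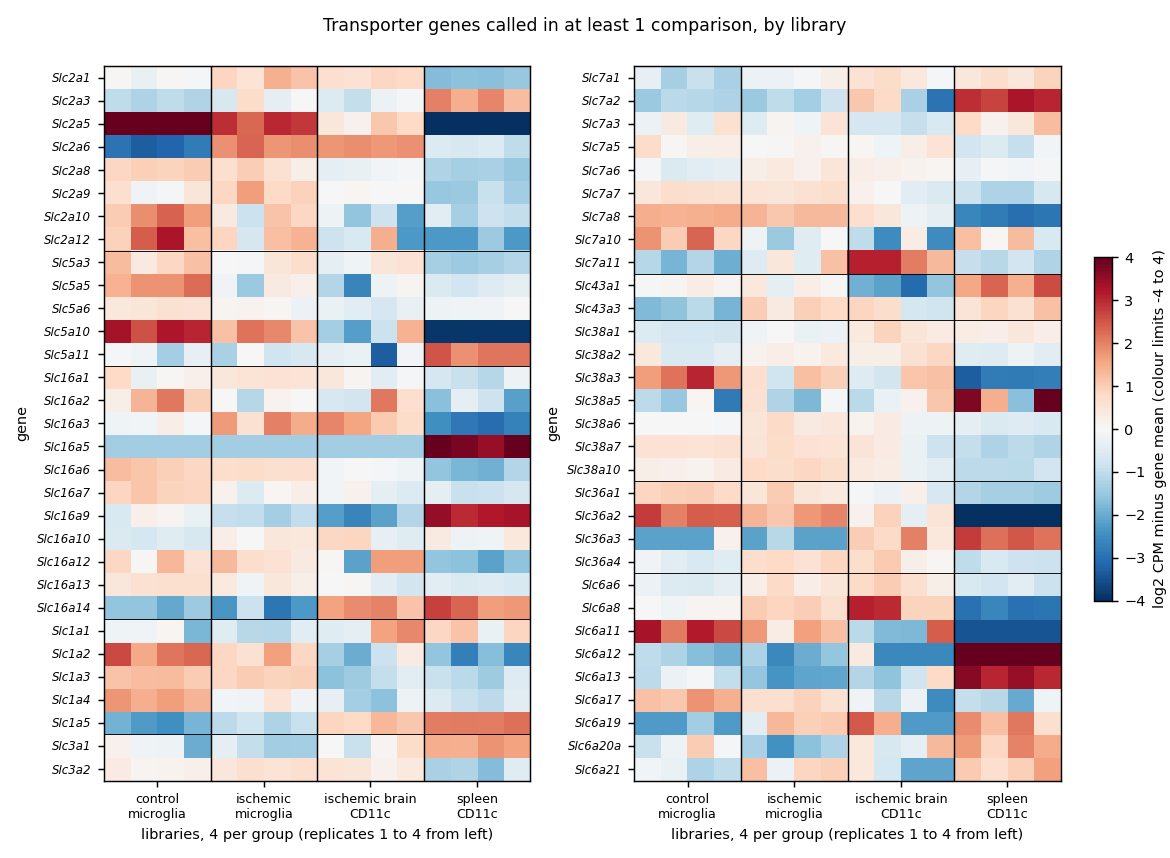
Each row is 1 of the 62 genes that passed the edgeR test in at least 1 comparison (81.7% of all tested genes did) and each column 1 library; colour is the log2 CPM of that library minus the gene's mean over 16 libraries, cut at -4 and 4, and black lines separate groups and gene families. Slc2a5 runs from its highest level in control microglia to its lowest in the spleen, while Slc1a5 runs the other way.

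Ischemic microglia were set against control microglia with the quasi-likelihood test of edgeR, with p-values adjusted over all tested genes (Benjamini-Hochberg) and called under 0.05. Every adjusted p given for a gene is from that test. Of 68 tested members 17 rose and 13 fell, against 17.7% of all tested genes rising and 18.0% falling (35.7% in all). The members' median log2 change was -0.19 against -0.05 for all genes. The number that fell was 6 without replicate 3 of control microglia and 8 without replicate 1 of ischemic microglia. In brain CD11c cells against ischemic microglia, 9 members were higher and 21 lower, against 19.7% and 19.1% of all genes (38.8% in all), with a median of -0.18 against 0.00. Between brain and spleen CD11c cells, 32 members were higher in the brain and 15 lower, against 31.2% and 33.0% of all genes (64.2% in all), with a median of 0.41 against -0.04. Ischemic microglia are common to the first pair of comparisons and brain CD11c cells to the last pair, so the comparisons are not independent. In the ischemic microglia, 19 members lay wholly above and 19 wholly below the control libraries, against 19.9% and 23.3% of all genes (43.3% in all). Brain CD11c libraries lay wholly above those of ischemic microglia for 6 members and below for 18, against 14.9% and 16.5% (31.4% in all). Against the spleen the members numbered 25 above and 14 below, against 25.3% and 29.9% (55.2% in all).

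Of the 68 tested members, 62 (91.2%) passed in at least 1 comparison, against 81.7% of all tested genes. The abundant Slc38a9 and Slc43a2 were among the 6 that passed in none.

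By family, 4 of 8 tested Slc2a genes rose and 1 fell in ischemic microglia, 0 were higher and 4 lower in brain CD11c cells than in ischemic microglia, and 6 were higher and 1 lower in the brain than in the spleen. The share of Slc2a genes called was 62.5%, 50% and 87.5% in that order, against 35.7%, 38.8% and 64.2% of all genes. The count of 0 higher Slc2a genes in brain CD11c cells, by edgeR, was also 0 at an unadjusted p under 0.05, by limma-voom and by DESeq2. For Slc7a, with 11 tested genes, the counts of higher and lower were 3 and 1, 1 and 2, and 5 and 3 in the same order of comparisons. These are 36.4%, 27.3% and 72.7% called. Slc16a, also with 11, gave 2 and 2, 1 and 3, and 6 and 2. Its shares called were 36.4%, 36.4% and 72.7%, the first pair near those of all genes. Slc6a, again with 11, gave 2 and 2, 3 and 1, and 3 and 4. Its shares called were 36.4%, 36.4% and 63.6%, near those of all genes. By limma-voom Slc6a gave 2 and 3, 2 and 3, and 3 and 6. Its median log2 difference between brain CD11c cells and ischemic microglia was then -0.38, against 0.23 by edgeR. Slc38a, with 8, gave 3 and 1, 1 and 3, and 5 and 1, with 50%, 50% and 75% called. By edgeR all 5 tested Slc1a genes differed between brain CD11c cells and ischemic microglia, 2 higher and 3 lower. That count became 1 higher and 3 lower by limma-voom, and 2 and 2 with library totals alone. Over the 3 comparisons, in the same order, 60%, 100% and 40% of the tested Slc1a genes were called by edgeR. With libraries scaled by their totals alone, the Slc2a counts became 4 and 3, 0 and 4, and 6 and 1, so that ischemic microglia had 2 more Slc2a genes called lower. Under that scaling Slc7a gave 3 and 1, 2 and 2, and 4 and 4, and Slc16a gave 2 and 4, 1 and 2, and 4 and 2.

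**Figure D2:**
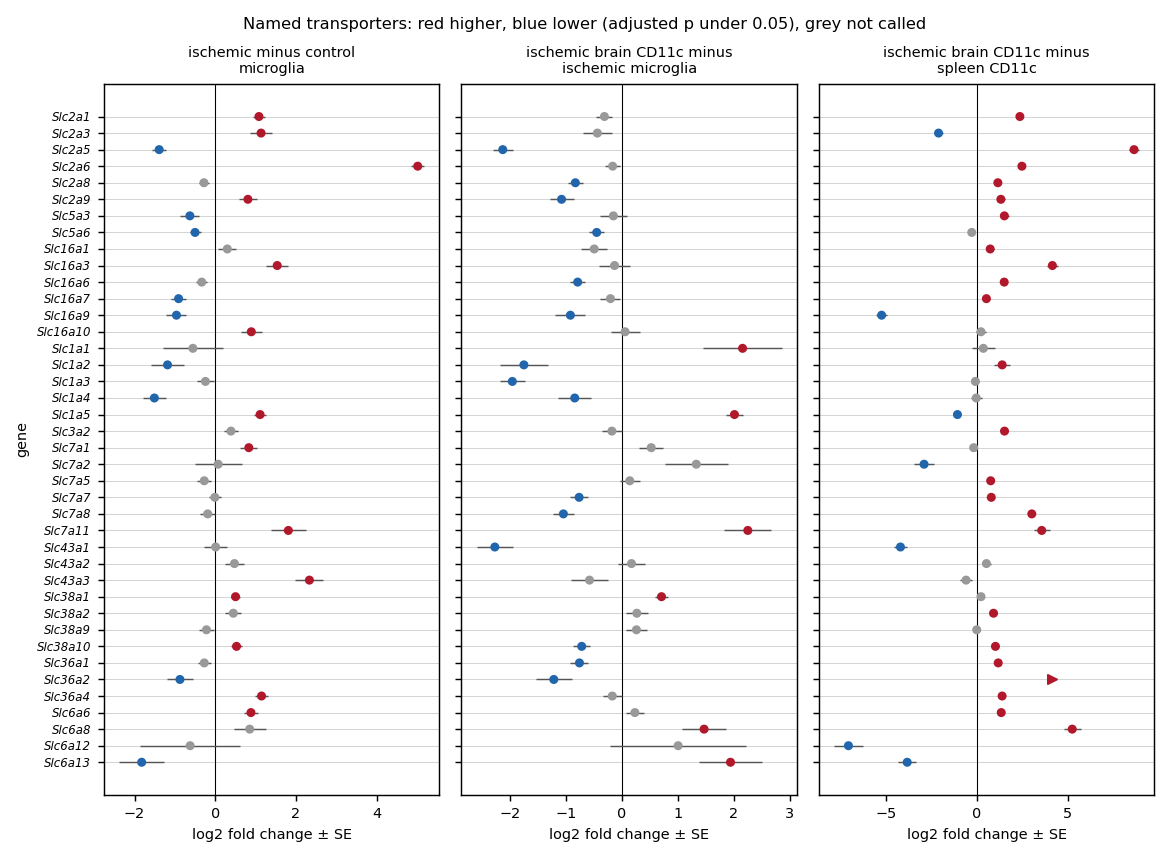
Log2 fold changes with standard errors for 40 named carriers (rows) in the 3 comparisons (panels, each with its own scale); red points are higher and blue lower by the edgeR test, grey points did not pass, and the triangle for Slc36a2 is a lower bound because the spleen libraries had no count. Slc2a6 has the highest value between the microglia groups and Slc2a5 between brain and spleen CD11c cells.

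Among the hexose carriers, Slc2a5 (ENSMUSG00000028976, chromosome 4, 150119283 to 150144169), the fructose carrier GLUT5, had a different level in each group. It stood at 569, 687, 674 and 624 CPM in control and 272, 173, 282 and 248 in ischemic microglia. Brain CD11c cells had 48.1, 39.3, 74.5 and 60.5 CPM and spleen CD11c cells 0.0995, 0.149, 0.144 and 0.139. No 2 groups overlapped. The fall in ischemic microglia was 1.39 ± 0.18 log2 units (SE, adjusted p = 2.53e-05), and brain CD11c cells were lower than ischemic microglia (log2 -2.13 ± 0.18, SE, adjusted p = 1.28e-07) but far above the spleen (log2 8.66 ± 0.28, SE, adjusted p = 3.17e-13). Microglia markers summed over 8 genes run in the same order over the 4 groups, and their part in the Slc2a5 difference was not tested.

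Slc2a6 (ENSMUSG00000036067, chromosome 2, 27021363 to 27027998), which encodes GLUT6, a hexose carrier of intracellular membranes in macrophages, went the opposite way in ischemic microglia. Its levels were 5.52, 4.35, 4.83 and 6.24 CPM in control microglia and 156, 217, 148 and 158 in ischemic microglia, a rise of 5.02 ± 0.16 log2 units (SE, adjusted p = 1.07e-11). Brain CD11c cells stood at 149, 156, 146 and 155 CPM, within the range of ischemic microglia apart from replicate 3 of the CD11c cells, just below it (log2 -0.17 ± 0.13, SE, adjusted p = 0.357). Spleen CD11c cells had 29.8, 27.6, 29.9 and 21.5 CPM, above control microglia and below both ischemic groups, and the brain exceeded them by 2.48 ± 0.14 log2 units (SE, adjusted p = 3.47e-10).

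Slc2a1 (ENSMUSG00000028645, chromosome 4, 119108711 to 119137983), the widely expressed glucose carrier GLUT1, stood at 98.7, 77.3, 98.7 and 91.5 CPM in control and 171, 139.9, 255 and 211 in ischemic microglia. The CD11c cells had 151, 141, 169 and 164 CPM in the brain and 28.4, 30.2, 29.8 and 32.9 in the spleen. Its rise in ischemic microglia was 1.08 ± 0.15 log2 units (SE, adjusted p = 4.5e-05), and it was higher in brain than spleen CD11c cells by 2.37 ± 0.15 log2 units (SE, adjusted p = 1.27e-09), with no overlap in either case. The levels of ischemic microglia and of CD11c cells in the same hemisphere overlapped (log2 -0.31 ± 0.14, SE, adjusted p = 0.0982). Slc2a3, the high-affinity glucose carrier GLUT3 of neurons and leukocytes, was the Slc2a gene that went against this between CD11c cells: it stood at 15.9, 12, 20.03 and 22 CPM in the brain and 95.6, 63.7, 89.9 and 54.9 in the spleen (log2 -2.12 ± 0.27, SE, adjusted p = 5.47e-06). In microglia it rose from 11.5, 9.94, 11.5 and 10.2 to 15.1, 39, 17.8 and 23 CPM (log2 1.14 ± 0.27, SE, adjusted p = 0.00385).

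Slc2a9, which carries urate, and Slc2a8, a hexose carrier of intracellular vesicles, were lower in brain CD11c cells than in ischemic microglia. Slc2a9 stood at 15.8 to 27.5 CPM in control and 29.99 to 55.2 in ischemic microglia. Brain CD11c cells had 17 to 18.3 CPM and spleen CD11c cells 6.05 to 9.3. Its log2 difference was 0.81 between the microglia groups (adjusted p = 0.00752). It was -1.08 for brain CD11c cells against ischemic microglia (adjusted p = 0.000802) and 1.32 for brain against spleen (adjusted p = 6.58e-05). Slc2a8 stood at 50.1 to 56.7 CPM in control and 32.7 to 55.4 in ischemic microglia, 21.9 to 27 in brain and 9.66 to 12.1 in spleen CD11c cells. It was lower by 0.83 ± 0.13 log2 units (SE, adjusted p = 9.68e-05) in brain CD11c cells than in ischemic microglia and did not pass the test between the microglia groups (log2 -0.28 ± 0.13, SE, adjusted p = 0.105).

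The lactate carriers changed unevenly. Slc16a3 (ENSMUSG00000025161, chromosome 11, 120948480 to 120960868), the lactate exporter MCT4 of glycolytic cells, stood at 52.5, 55.2, 71.5 and 57.1 CPM in control and 192, 90, 239 and 165 in ischemic microglia. In CD11c cells the level was 227, 177, 123 and 98.5 CPM in the brain and 10.8, 8.05, 7.05 and 9.13 in the spleen. All ischemic microglia exceeded all control microglia (log2 1.54 ± 0.28, SE, adjusted p = 0.000549), and brain CD11c cells exceeded those of the spleen by 4.16 ± 0.31 log2 units (SE, adjusted p = 1.21e-08). Brain CD11c cells and ischemic microglia overlapped (log2 -0.13 ± 0.27, SE, adjusted p = 0.742), with a log2 difference of 0.24 when brain replicates 1 and 2 were used alone.

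Slc16a1 (ENSMUSG00000032902, chromosome 3, 104638668 to 104658462), the more widely expressed MCT1, stood at 50.6, 24.1, 30.1 and 33.9 CPM in control and 40.2, 43.3, 44.3 and 43 in ischemic microglia. For CD11c cells the values were 40.2, 31.4, 21.8 and 27.7 CPM in brain and 18.6, 15.7, 13.3 and 25.5 in spleen. It did not pass the test between the microglia groups (log2 0.30 ± 0.23, SE, adjusted p = 0.325). The brain and spleen CD11c libraries overlapped for it; the call of a higher level in the brain (log2 0.73 ± 0.23, SE, adjusted p = 0.0109) was lost with brain replicates 3 and 4 alone (adjusted p = 0.185), without brain replicate 1 (0.0571) and with library totals alone (0.0540). Slc16a7, the high-affinity carrier MCT2, fell in ischemic microglia (log2 -0.91 ± 0.18, SE, adjusted p = 0.000956), with 57.6 to 69.4 CPM in control and 21.8 to 38.6 in ischemic libraries. Between brain and spleen its difference (log2 0.52 ± 0.18, SE, adjusted p = 0.0181) was lost with brain replicates 3 and 4 alone, with library totals alone, and without brain replicate 2 or spleen replicate 2 or 3 (adjusted p from 0.0515 to 0.326).

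Other Slc16a genes separated the CD11c cells by organ. Slc16a9 (ENSMUSG00000037762, chromosome 10, 70245100 to 70285968), a carrier linked to carnitine export, stood at 0.972, 0.7004, 1.02 and 2.02 CPM in the brain and 54.2, 37.2, 43.3 and 45.9 in the spleen (log2 -5.26 ± 0.29, SE, adjusted p = 1.77e-10), and in both microglia groups it was between 1.80 and 5.35 CPM. Slc16a6 showed the reverse order, with 271 to 360.1 CPM in control and 241 to 256 in ischemic microglia, and 136 to 152 in brain and 40.7 to 67.4 in spleen CD11c cells. Brain CD11c cells differed from ischemic microglia by log2 -0.79 (adjusted p = 0.000179) and from the spleen by 1.50 (adjusted p = 7.56e-08). Exons of Amz2 on the opposite strand cover 21.5% of the exon bases of Slc16a6, and 12.7% and 10.8% of those of Slc16a9 lie opposite the gene models Gm7097 and Gm9877; the strand setting of the counting is not given in the sources used here, so reads of such pairs may be mixed. Slc16a10, a carrier of aromatic amino acids and thyroid hormone, rose in ischemic microglia (log2 0.89 ± 0.26, SE, adjusted p = 0.0149), with 33.8 to 39.5 CPM in control and 55.1 to 76.3 in ischemic libraries. In brain CD11c cells it stood at 97.8, 101, 43.8 and 39.4 CPM, and neither comparison of that group passed the test.

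**Figure D3:**
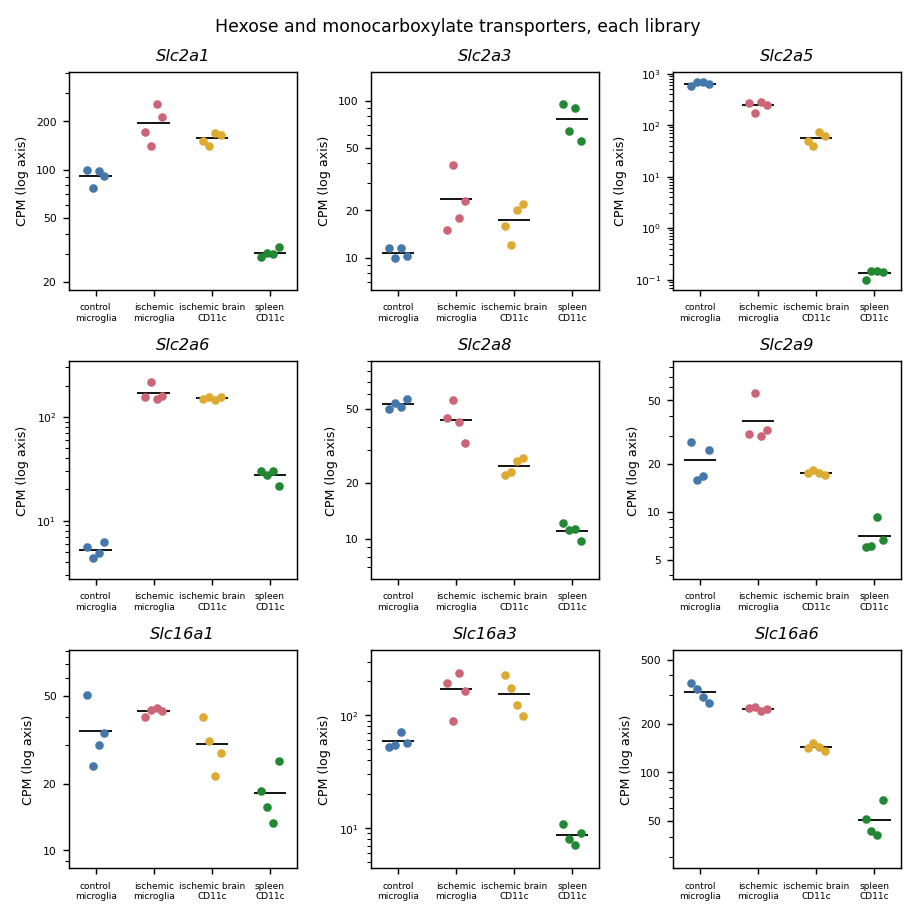
CPM of 6 hexose and 3 monocarboxylate carriers on log axes; each point is 1 of the 4 libraries of a group and the black line is the group mean. Slc2a5 is highest and Slc2a6 lowest in control microglia, and Slc16a3 is lowest in the spleen, where all libraries lie at 10.8 CPM or less.

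Promoter bases are printed for 3 carriers that rose in ischemic microglia, chosen after their values and motifs were seen: Slc7a11 and Slc16a3 each hold a motif at 2 places, and Slc2a6 had the largest rise. The sequences are the 250 bases before the RefSeq start on GRCm38.p6, read 5' to 3' on the gene's strand, with matches in capitals to the core of the amino acid response element (TGATGNAA), of the antioxidant response element (TGACNNNGC) and of the hypoxia response element (ACGTG), searched on both strands.
Slc7a11, chr3:50443614-50443863, minus strand: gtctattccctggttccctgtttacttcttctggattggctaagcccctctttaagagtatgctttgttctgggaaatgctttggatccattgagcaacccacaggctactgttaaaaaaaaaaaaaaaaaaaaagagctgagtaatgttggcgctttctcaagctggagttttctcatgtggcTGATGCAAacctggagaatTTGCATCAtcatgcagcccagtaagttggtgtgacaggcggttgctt
Slc16a3, chr11:120948817-120949066, plus strand: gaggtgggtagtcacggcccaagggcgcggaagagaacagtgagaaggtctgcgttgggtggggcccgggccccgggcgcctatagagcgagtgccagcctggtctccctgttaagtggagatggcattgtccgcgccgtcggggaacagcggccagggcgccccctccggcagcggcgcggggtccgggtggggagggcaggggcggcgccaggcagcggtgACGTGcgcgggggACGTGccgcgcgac
Slc2a6, chr2:27027999-27028248, minus strand: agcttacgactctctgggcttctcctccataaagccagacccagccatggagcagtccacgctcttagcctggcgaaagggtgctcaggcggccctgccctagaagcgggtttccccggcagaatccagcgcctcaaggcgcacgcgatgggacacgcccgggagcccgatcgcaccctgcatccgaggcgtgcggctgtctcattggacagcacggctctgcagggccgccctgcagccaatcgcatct
For Slc7a11 there were 2 matches to the amino acid response core, starting at -66 and -47 relative to the start and lying in opposite orientations. Over all 32851 promoters of this length, 3.45% held that core and 0.0396% held it at 2 or more places; over the 98 promoters found for 75 members, 4.08% and 1.02% did. Slc16a3 had 2 matches to the hypoxia core, at -27 and -14, against 16.6% of all promoters with any and 1.95% with 2 or more. Over the 98 member promoters these shares were 22.4% and 2.04%. Slc2a6 had no match to the 3 cores in this window. A match describes letters and not a bound site, and most of the Slc16a3 window lies inside the first intron of a longer transcript in the GENCODE annotation.

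The cystine-glutamate exchanger and its partner are next. Slc7a11 (ENSMUSG00000027737, chromosome 3, 49892526 to 50443614), xCT, the light chain that imports cystine, stood at 4.07, 2.48, 4.03 and 2.31 CPM in control and 6.32, 12.4, 6.43 and 20.5 in ischemic microglia. Levels in CD11c cells were 78.4, 78.5, 37.6 and 22.2 CPM (brain) and 4.75, 4.21, 5.38 and 3.89 (spleen). Its rise in ischemic microglia was 1.81 ± 0.43 log2 units (SE, adjusted p = 0.00399); it was higher still in brain CD11c cells by 2.25 ± 0.42 log2 units (SE, adjusted p = 0.000541), and exceeded the spleen by 3.57 ± 0.45 log2 units (SE, adjusted p = 4.64e-06). Each of these 3 pairs of groups was free of overlap. With brain replicates 3 and 4 alone, the CD11c differences were 1.42 from ischemic microglia and 2.69 from the spleen, both still called. Slc3a2 (ENSMUSG00000010095, chromosome 19, 8706882 to 8723369), the heavy chain CD98 shared by several light chains, stood at 588, 497, 508 and 537 CPM in control and 639, 731, 679.7 and 744 in ischemic microglia. Among CD11c cells, brain libraries had 679, 650.3, 525 and 612 CPM and spleen libraries 189, 202, 140.4 and 329. It was higher in brain than spleen CD11c cells by 1.52 ± 0.19 log2 units (SE, adjusted p = 3.15e-06), and neither of the other comparisons passed (adjusted p = 0.112 and 0.479).

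The light chains for large neutral amino acids followed another order. Slc7a8 (ENSMUSG00000022180, chromosome 14, 54722209 to 54781946), LAT2, stood at 683, 662, 676 and 696 CPM in control and 637, 524, 614 and 612 in ischemic microglia. Brain CD11c cells had 400.5, 345, 219 and 191 CPM and spleen CD11c cells 41.4, 36, 30.9 and 33.8. Between the microglia groups the difference (log2 -0.19 ± 0.18, SE, adjusted p = 0.449) did not pass. Brain CD11c cells were lower than ischemic microglia by 1.05 ± 0.18 log2 units (SE, adjusted p = 0.000258), and they were higher than the spleen by 3.02 ± 0.20 log2 units (SE, adjusted p = 1.43e-09). Slc7a5, the related LAT1, varied less: it stood at 79 to 126, 76.5 to 85.3, 67.7 to 111 and 40.3 to 70.4 CPM in control microglia, ischemic microglia, brain CD11c and spleen CD11c cells, and passed the test only between brain and spleen (log2 0.76 ± 0.18, SE, adjusted p = 0.00159), where the libraries overlapped. Slc7a7, which exchanges cationic for neutral amino acids, stood at 155 to 183, 159.6 to 183, 76.1 to 126 and 48.3 to 72.4 CPM in the same order; brain CD11c cells were lower than ischemic microglia by 0.77 ± 0.16 log2 units (SE, adjusted p = 0.000935) and higher than the spleen by 0.79 ± 0.16 log2 units (SE, adjusted p = 0.000332).

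Slc7a1 and Slc7a2 carry cationic amino acids. Slc7a1, the arginine and lysine carrier CAT1, rose in ischemic microglia from 32.6, 16.3, 22.4 and 16.6 to 34.9, 34.7, 39.1 and 48.1 CPM (log2 0.83 ± 0.21, SE, adjusted p = 0.00653); CD11c cells stood at 62.1, 68.9, 55.6 and 38.8 CPM in the brain and 56.4, 66.6, 56.2 and 76.7 in the spleen, which overlap (log2 -0.18 ± 0.21, SE, adjusted p = 0.462). Slc7a2, the CAT2 carrier that supplies arginine to macrophages, was low in brain and clearly counted in the spleen, at 3.34, 2.66, 0.609 and 0.158 CPM in brain CD11c cells against 12.2, 10.5, 15.4 and 13.3 in the spleen (log2 -2.92 ± 0.55, SE, adjusted p = 0.00022). The brain replicates spread for this gene: the log2 difference was -2.10 with replicates 1 and 2 alone, -5.04 with replicates 3 and 4 alone and -3.51 without replicate 1. In both microglia groups Slc7a2 was at most 0.847 CPM in every library.

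The Slc1a family splits into glutamate carriers and carriers of small neutral amino acids. Slc1a5 (ENSMUSG00000001918, chromosome 7, 16781340 to 16798274), the glutamine carrier ASCT2, also differed between all groups. It had 13, 10.02, 8.84 and 13.2 CPM in control and 23.1, 28, 20.3 and 26 in ischemic microglia, then 86.9, 83.2, 122 and 101 in brain and 200.5, 205, 202 and 222 in spleen CD11c cells. No 2 groups overlapped, and all 3 comparisons passed: 1.11 ± 0.15 log2 units (SE, adjusted p = 3.93e-05) higher in ischemic microglia, 2.01 ± 0.15 log2 units (SE, adjusted p = 2.96e-08) higher in brain CD11c cells than in them, and 1.08 ± 0.14 log2 units (SE, adjusted p = 6.85e-06) lower in brain than in spleen. Slc1a4, the related alanine, serine and cysteine carrier ASCT1, fell in ischemic microglia, from 16.3, 13.3, 15.5 and 12.5 to 4.44, 4.36, 7.06 and 4.37 CPM (log2 -1.51 ± 0.29, SE, adjusted p = 0.000744). Brain CD11c cells stood lower, at 3.83, 1.82, 1.49 and 4.14 CPM (log2 -0.84 ± 0.29, SE, adjusted p = 0.0297), a call lost with library totals alone, with only the 2 groups in the model, without ischemic microglia replicate 3, without brain CD11c replicate 2 or 3, and with brain replicates 3 and 4 alone (adjusted p from 0.0545 to 0.126).

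Slc1a3 (ENSMUSG00000005360, chromosome 15, 8634124 to 8710764), the glutamate carrier GLAST, stood at 148, 161, 164 and 137 CPM in control and 122, 137, 127 and 131 in ischemic microglia. The CD11c cells had 21.9, 25.6, 35.4 and 49.9 CPM in the brain and 36.7, 31.9, 25.1 and 47.5 in the spleen. Brain CD11c cells were lower than ischemic microglia by 1.96 ± 0.22 log2 units (SE, adjusted p = 3.14e-06), while the microglia groups did not pass (log2 -0.24 ± 0.21, SE, adjusted p = 0.396) and brain and spleen CD11c cells overlapped (log2 -0.09 ± 0.21, SE, adjusted p = 0.733). Slc1a2 (ENSMUSG00000005089, chromosome 2, 102658659 to 102790784), the astrocyte carrier GLT-1, stood at 31.2, 14.2, 22 and 24.6 CPM in control and 8.82, 7.55, 15.4 and 8.79 in ischemic microglia. For CD11c cells the values were 1.94, 1.2, 2.71 and 6.2 CPM in brain and 1.64, 0.701, 1.48 and 0.764 in spleen. Ischemic libraries overlapped the control ones, brain CD11c libraries lay below them, and brain and spleen overlapped. Its differences were log2 -1.18 (adjusted p = 0.035), -1.75 (adjusted p = 0.00423) and 1.39 (adjusted p = 0.0132) for ischemic against control microglia, brain CD11c cells against ischemic microglia, and brain against spleen. The first was lost without control replicate 1, 3 or 4, without ischemic microglia replicate 1, 2 or 4 and with no filter on low counts (adjusted p from 0.0587 to 0.0952). Brain replicate 4 was the highest of its group at 6.20 CPM. Without it the difference from ischemic microglia was -2.37, and that from the spleen was 0.77 and no longer passed (adjusted p = 0.0900). The brain against spleen call was also lost by limma-voom (adjusted p = 0.0926) and with brain replicates 1 and 2 alone (0.376), where the difference from ischemic microglia was -2.69.

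Astrocyte markers were counted beside these carriers: 7 of 7 were measured, none was at 0 in any group, and their sum was 33.96 to 57.3 CPM in control and 41.6 to 59.3 in ischemic microglia. It was 21.8 to 29.5 CPM in brain CD11c cells and 10.04 to 14.1 in spleen. Neuron markers, also 7 of 7, summed to 29.0 to 57.0, 20.4 to 34.2, 3.28 to 8.73 and 8.54 to 12.1 CPM, with Snap25 and Nefl at 0 in the spleen. In every control and ischemic microglia library, Slc1a3 was above the summed astrocyte markers and Slc1a2 was below them. The part of other brain cells in the Slc1a2 and Slc1a3 differences was not tested. Slc1a1, the glutamate and cysteine carrier EAAC1, was at 1.01 CPM or less in every library; its call in brain CD11c cells (log2 2.16 ± 0.70, SE, adjusted p = 0.0205) was lost with brain replicates 1 and 2 alone (log2 0.44), without brain replicate 3 or 4, without ischemic microglia replicate 2 or 3, with only the 2 groups in the model, and by limma-voom. Exons of a gene on the opposite strand cover 31.9% of its exon bases.

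**Figure D4:**
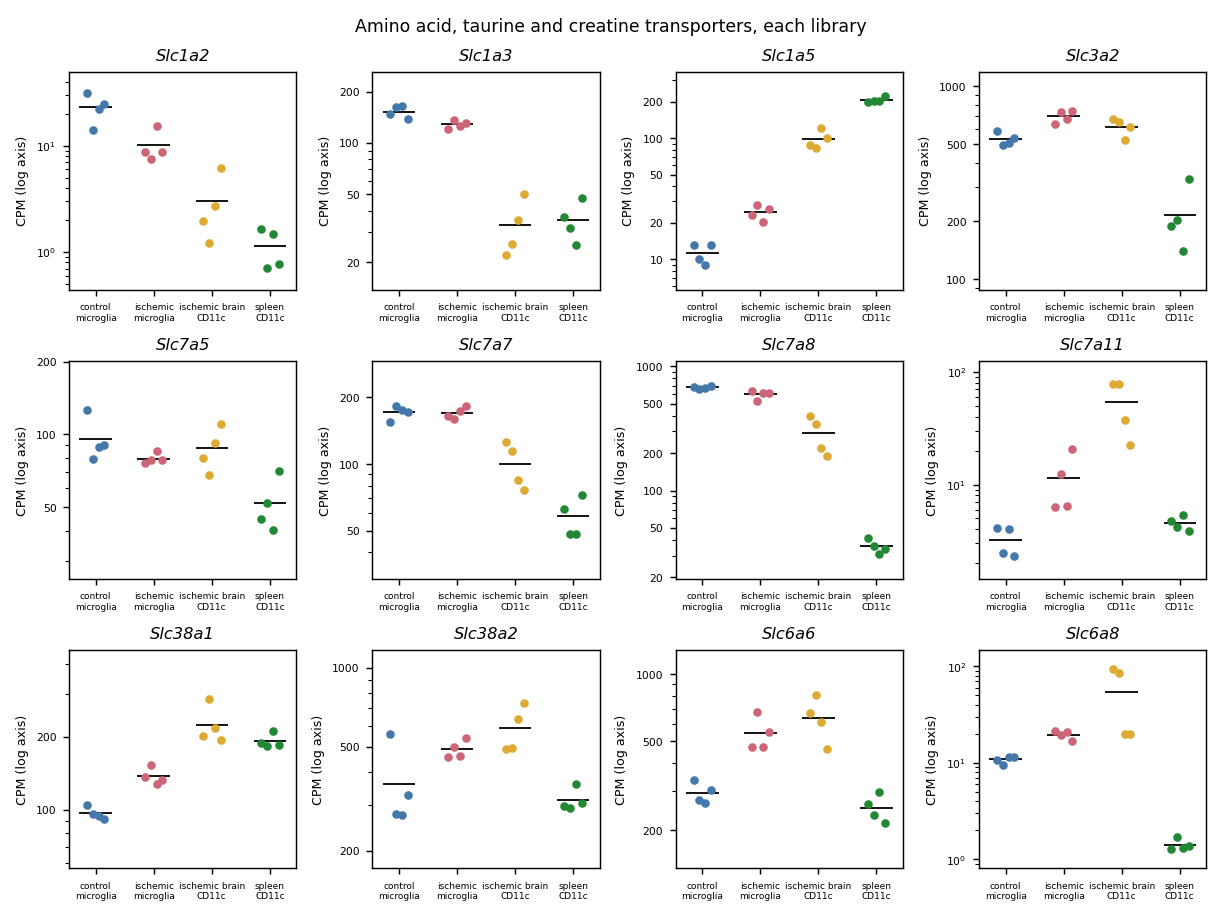
CPM of 12 amino acid, taurine and creatine carriers on log axes; each point is 1 of the 4 libraries of a group and the black line is the group mean. Slc1a5 is highest and Slc7a8 lowest in the spleen, and Slc7a11 and Slc6a8 are highest in brain CD11c cells, where replicates 1 and 2 lie above 3 and 4.

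Sodium-coupled neutral amino acid carriers were among the more abundant members. Slc38a1 (ENSMUSG00000023169, chromosome 15, 96571418 to 96642913), the glutamine carrier SNAT1, stood at 105, 96.1, 94.3 and 91.6 CPM in control and 136, 153, 128 and 132 in ischemic microglia. In CD11c cells the level was 202, 285, 217 and 193 CPM in the brain and 189, 183, 211 and 185 in the spleen. It rose by 0.50 ± 0.11 log2 units (SE, adjusted p = 0.00253) in ischemic microglia and was 0.71 ± 0.11 log2 units (SE, adjusted p = 0.000108) higher in brain CD11c cells than in them, both without overlap. Slc38a2, the SNAT2 carrier induced by amino acid shortage, stood at 558, 275, 274 and 326 CPM in control microglia, of which replicate 1 was above all ischemic microglia (457, 499, 459.6 and 541; log2 0.45 ± 0.20, SE, adjusted p = 0.0893). In CD11c cells it was higher in the brain, at 488, 493, 639 and 733 CPM, than in the spleen, at 295, 290.1, 360.0 and 305 (log2 0.91 ± 0.20, SE, adjusted p = 0.000789). Slc38a10 rose in ischemic microglia (log2 0.53 ± 0.15, SE, adjusted p = 0.0109), with 281 to 320.1 CPM in control and 419 to 453 in ischemic libraries. It was lower than that in brain CD11c cells, at 335, 314, 213 and 190.1 CPM (log2 -0.72 ± 0.15, SE, adjusted p = 0.00106). Slc38a9, a lysosomal arginine sensor upstream of the mTORC1 kinase, stood at 42.2 to 82.9 CPM in all 16 libraries and passed no comparison (adjusted p = 0.375, 0.281 and 0.948).

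The Slc36a carriers went different ways. Slc36a1, PAT1, stood at 206 to 237 CPM in control and 159 to 247 in ischemic microglia. The CD11c cells had 77.3 to 141 CPM in the brain and 44.7 to 54.3 in the spleen. Brain CD11c cells were lower than ischemic microglia by 0.76 ± 0.16 log2 units (SE, adjusted p = 0.00134) and higher than the spleen by 1.17 ± 0.16 log2 units (SE, adjusted p = 1.06e-05). Slc36a4, the related PAT4, rose in ischemic microglia from 43.2, 35, 31 and 34.1 to 77.2, 83.5, 71.5 and 85.6 CPM (log2 1.15 ± 0.17, SE, adjusted p = 0.000114) and was higher in brain than in spleen CD11c cells (log2 1.39 ± 0.17, SE, adjusted p = 3.39e-06). Slc36a2, a carrier of glycine and proline, stood at 6.52, 3.74, 4.98 and 4.85 CPM in control and 2.36, 1.94, 3.06 and 3.6 in ischemic microglia. It had 1.002, 1.74, 0.664 and 1.3 CPM in brain CD11c cells and no count in the spleen. The mean of Slc36a2 in brain CD11c cells was 17.4-fold above a floor of 3 counts per spleen library. This holds for the mean and not for each library. The fall of Slc36a2 in ischemic microglia (log2 -0.87 ± 0.31, SE, adjusted p = 0.0433) was lost without any of control replicates 1, 3 and 4 or ischemic replicates 1, 2 and 3, and with no filter on low counts (adjusted p from 0.0632 to 0.115).

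The Slc6a family carries taurine, creatine, glycine, proline and the transmitter GABA. Slc6a6 (ENSMUSG00000030096, chromosome 6, 91684053 to 91759066), the taurine carrier, stood at 336, 271, 264 and 302 CPM in control and 470.1, 675, 472 and 550.5 in ischemic microglia. Levels in CD11c cells were 666, 803, 613 and 463 CPM (brain) and 262, 234, 296 and 215 (spleen). Its rise in ischemic microglia was 0.89 ± 0.16 log2 units (SE, adjusted p = 0.000605), and it was higher in brain than spleen CD11c cells by 1.34 ± 0.17 log2 units (SE, adjusted p = 2.89e-06), and the 2 groups of the ischemic hemisphere overlapped (log2 0.23 ± 0.16, SE, adjusted p = 0.284). Slc6a8 (ENSMUSG00000019558, chromosome X, 73673150 to 73682502), the creatine carrier, stood at 10.7, 9.58, 11.5 and 11.6 CPM in control and 21.5, 19.3, 20.9 and 16.8 in ischemic microglia. Among CD11c cells, brain libraries had 92.6, 84.9, 19.9 and 19.9 CPM and spleen libraries 1.29, 1.72, 1.3 and 1.37. Brain CD11c replicates 1 and 2 were far above every other library, while replicates 3 and 4 lay within the range of ischemic microglia. The call of a higher level than in ischemic microglia (log2 1.47 ± 0.40, SE, adjusted p = 0.0083) was lost with replicates 3 and 4 alone (log2 0.044, adjusted p = 0.845), and replicates 1 and 2 alone gave log2 2.18 (adjusted p = 7.98e-09). Against the spleen all 4 were higher (log2 5.25 ± 0.48, SE, adjusted p = 1.43e-07), by 5.96 with replicates 1 and 2 and by 3.78 with replicates 3 and 4.

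Carriers of GABA and betaine were higher in the spleen. Slc6a12, the betaine carrier BGT1, stood at 12, 11, 17.4 and 5.65 CPM in the spleen and at 0.334, 0, 0 and 0 in brain CD11c cells (log2 -7.09 ± 0.79, SE, adjusted p = 9.35e-07). Brain replicates 2 to 4 had no count, so the size of this difference rests on replicate 1. Slc6a13, the GABA carrier GAT2, stood at 8.31, 5.5, 7.38 and 5.4 CPM in the spleen and 0.243, 0.168, 0.332 and 1.11 in brain CD11c cells (log2 -3.85 ± 0.48, SE, adjusted p = 3.06e-06). Brain replicate 4 was the highest of its group, and without it the difference was -4.73; it was -5.00 with replicates 1 and 2 and -3.24 with 3 and 4. In the brain groups Slc6a13 was at 1.11 CPM or less, and its calls there (log2 -1.82 in ischemic microglia and 1.94 in CD11c cells against them) were lost without control replicate 3 for the first (adjusted p = 0.0539), and for the second without brain replicate 4, with replicates 1 and 2 alone (log2 1.06 and 0.79), by limma-voom and with only the 2 groups in the model.

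Of the remaining families, Slc43a3, a nucleobase carrier, rose in ischemic microglia from 5.5, 6.17, 8.88 and 5.11 to 36.8, 24.3, 36.6 and 32.3 CPM (log2 2.34 ± 0.34, SE, adjusted p = 0.00012). Brain CD11c cells stood at 34.1, 30.7, 11.5 and 10.7 CPM, with replicates 3 and 4 below every ischemic microglia and spleen library, and neither of their comparisons passed. Slc43a1, the branched-chain amino acid carrier LAT3, was lowest in brain CD11c cells, at 0.972, 0.84, 0.415 and 1.27 CPM against 5.21, 3.03, 4.6 and 3.996 in ischemic microglia (log2 -2.27 ± 0.32, SE, adjusted p = 3.49e-05) and 11.2, 19.8, 10.3 and 23.7 in the spleen (log2 -4.22 ± 0.34, SE, adjusted p = 1.9e-08). Slc43a2, the related LAT4, was abundant at 136 to 172, 157 to 344, 156 to 320.2 and 157 to 198 CPM in control microglia, ischemic microglia, brain CD11c and spleen CD11c cells and passed no comparison.

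Slc5a genes were mostly scarce, with 5 of 13 tested. Slc5a3, the myo-inositol carrier, stood at 23.9 to 45.2 CPM in control and 18.2 to 30.6 in ischemic microglia. In CD11c cells the level was 14.2 to 27.8 CPM in the brain and 6.74 to 8.18 in the spleen. For this gene the brain exceeded spleen by 1.51 ± 0.24 log2 units (SE, adjusted p = 4.63e-05). Its fall in ischemic microglia (log2 -0.63 ± 0.23, SE, adjusted p = 0.0466) was lost with RLE size factors, with no filter on low counts, with only the 2 groups in the model, and without control replicate 1, 3 or 4 or ischemic replicate 1, 2 or 3 (adjusted p from 0.0569 to 0.127). Slc5a6, the vitamin carrier for biotin and pantothenate, had 10.4 to 11.9 CPM in control and 6.56 to 8.56 in ischemic microglia (log2 -0.50 ± 0.14, SE, adjusted p = 0.00899; adjusted p = 0.0525 with no filter) and was lower than this in brain CD11c cells (log2 -0.45 ± 0.14, SE, adjusted p = 0.0153). Below 10 CPM, 3 further members were picked after their values were seen, each with no count in at least 1 group. Slc6a11, the GABA carrier GAT3, and Slc5a10 had none in the spleen. Their mean levels in brain CD11c cells were 12.4-fold and 9.69-fold above a floor of 3 counts per spleen library, which holds for the mean and not for each library. Brain replicate 4 carried most of both: Slc6a11 stood at 0.213, 0.112, 0.111 and 2.91 CPM and Slc5a10 at 0.243, 0.112, 0.36 and 1.9. Slc16a5 had none in any brain library and stood at 2.61, 1.76, 1.42 and 4.01 CPM in the spleen. Its spleen mean was 27.8-fold above a floor of 3 counts per brain CD11c library, again for the mean and not for each library.

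The brain against spleen values above stand beside markers of other spleen cells. In the spleen libraries, 5 of 5 B cell markers summed to 2229 to 2927 CPM against 10.8 to 17.0 in brain CD11c cells, 4 of 4 plasma cell markers to 4197 to 8198 against 10.3 to 57.5, and 3 of 3 red pulp macrophage markers to 1269 to 2070 against 46.3 to 75.4. Erythroid markers, 6 of 6, summed to 3540, 91.3, 52.9 and 466 CPM in spleen replicates 1 to 4 and to at most 1.15 in the brain CD11c libraries, and 6 of 6 neutrophil markers to 199 to 871 against 0.420 to 5.57. Their part in the carrier differences was not tested.

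The brain CD11c replicates fell into pairs for some members. For 24 of the 68 tested members replicates 1 and 2 were both above replicates 3 and 4, for 23 both were below, and for 21 the pairs overlapped. These are 35.3%, 33.8% and 30.9% of the members, against 30.4%, 26.1% and 43.5% of all tested genes. Slc6a8, Slc7a11, Slc43a3, Slc16a10, Slc16a3 and Slc7a8 were among the first, and Slc2a5 (48.1, 39.3, 74.5 and 60.5 CPM), Slc38a9 (42.6, 42.2, 75.9 and 82.9 CPM), Slc1a3 and Slc38a2 among the second. The sum over 9 dendritic cell markers was 10593, 15161, 21677 and 27143 CPM in replicates 1 to 4, that over 3 proliferation genes was 339, 347, 97.3 and 73.8, and that over 19 genes of glucose and lactate use was 4050, 3807, 2612 and 2563. Replicates 1 and 2 have titles that name the reporter and replicates 3 and 4 do not, and the labels do not say what else differed. Its part in these values was not tested.

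Genes that work with the carriers were counted from lists on partner proteins, glucose use and amino acid use. Of 5 tested partner proteins, 60% were called in ischemic against control microglia, against 35.7% of all genes. The share was 80% against 38.8% in brain CD11c cells against ischemic microglia, and 60% against 64.2% in brain against spleen. In ischemic microglia, Bsg and Arrdc4 rose and Txnip, which promotes removal of GLUT1 from the cell surface, fell. Txnip went from 1949 ± 125 to 661 ± 282 CPM (log2 -1.56 ± 0.27, SE, adjusted p = 0.000321). Bsg, the chaperone of MCT1 and MCT4, stood at 299 ± 44.7, 465 ± 58, 305 ± 65.3 and 119 ± 15.3 CPM in the 4 groups (SD, n = 4 each), and all 3 of its differences passed (log2 0.64, -0.61 and 1.36). Emb, the chaperone used by MCT2, stood at 2.22 to 5.82 CPM in ischemic microglia, 198 to 265 in brain CD11c cells and 53.9 to 88.6 in the spleen; it was 5.93 ± 0.32 log2 units (SE, adjusted p = 1.34e-09) higher in brain CD11c cells than in ischemic microglia.

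In the list of 19 glucose and lactate genes, 9 rose and 1 fell in ischemic microglia (52.6% called against 35.7% of all genes, median log2 0.30 against -0.05). Ldha, which makes lactate, rose from 124 ± 12.9 to 333 ± 68.9 CPM (log2 1.42 ± 0.17, SE, adjusted p = 1.45e-05), and Hk1, a hexokinase, fell (log2 -0.56 ± 0.13, SE, adjusted p = 0.0032). Pgk1 and Pgam1 had the largest changes (log2 1.55 and 1.48) but stood at 19.99 CPM or less in every library. Both have near-identical pseudogene copies that can take their reads, so their values are uncertain. In brain CD11c cells against ischemic microglia 3 were higher and 7 lower (52.6% called against 38.8%, median 0.09 against 0.00): Pfkp, a phosphofructokinase, was 4.70 ± 0.22 log2 units (SE, adjusted p = 2.01e-10) higher, and Ldhb, Hk2 and Pfkfb3 were lower (log2 -1.71, -1.21 and -1.12). Against the spleen 17 were higher and 0 lower in the brain by edgeR (0 lower at an unadjusted p under 0.05; 89.5% called against 64.2%, median 1.26 against -0.04), led by Ldhb, at 92.2 ± 13.2 against 1.08 ± 0.143 CPM (log2 6.41 ± 0.14, SE, adjusted p = 7.42e-15).

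Of 18 tested genes of the amino acid response, 4 rose and 2 fell in ischemic microglia, 4 were higher and 3 lower in brain CD11c cells than in them, and 8 were higher and 5 lower in brain than spleen (medians 0.17, 0.17 and 0.26, against -0.05, 0.00 and -0.04 for all genes). In that order 33.3%, 38.9% and 72.2% of the list were called, against 35.7%, 38.8% and 64.2% of all genes, so the first pair of shares lies near the background. Psat1, an enzyme of serine synthesis, rose in ischemic microglia from 41.6 ± 2.09 to 245 ± 16.6 CPM (log2 2.56 ± 0.20, SE, adjusted p = 2.38e-07). Atf3, a stress-induced transcription factor, stood at 633 ± 90.1 CPM in brain and 8.03 ± 1.33 in spleen CD11c cells (log2 6.30 ± 0.23, SE, adjusted p = 1.47e-12), while Pycr1 and Asns, of proline and asparagine synthesis, were higher in the spleen (log2 -4.39 and -1.98 for brain minus spleen).

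For 15 genes of glutamate, cystine and glutathione use the counts of higher and lower were 6 and 2 in ischemic microglia, 5 and 2 in brain CD11c cells against them, and 8 and 2 in brain against spleen (medians 0.22, 0.40 and 0.51, against -0.05, 0.00 and -0.04 for all genes). The share called was 53.3%, 46.7% and 66.7%, against 35.7%, 38.8% and 64.2% of all genes. Gsr, glutathione reductase, was the largest in the second (log2 2.27 ± 0.15, SE, adjusted p = 6.43e-09), and Srxn1, Nfe2l2 and Got1 were the largest in the third (log2 4.17, 3.45 and 3.44). Glul, glutamine synthetase, was lower in brain CD11c cells, at 621 ± 51.9 CPM, than in ischemic microglia, at 1494 ± 144 (log2 -1.27 ± 0.15, SE, adjusted p = 4.48e-06).

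In 12 tested genes of arginine, branched-chain and tryptophan use, 4 rose and 1 fell in ischemic microglia, 7 were higher and 0 lower by edgeR in brain CD11c cells against ischemic microglia (1 lower at an unadjusted p under 0.05), and 4 were higher and 5 lower in brain against spleen (medians 0.43, 1.28 and 0.02, against -0.05, 0.00 and -0.04 for all genes). The share called was 41.7%, 58.3% and 75%, against 35.7%, 38.8% and 64.2%. Kmo, of tryptophan breakdown, stood at 0.452 to 1.52 CPM in ischemic microglia, 41.3 to 114 in brain CD11c cells and 120.3 to 184 in the spleen (log2 6.13 ± 0.44, SE, adjusted p = 4.01e-08 for brain CD11c against ischemic microglia). Arg1, arginase, stood at 7.31 to 280.1 CPM in brain CD11c cells and 0.0249 to 0.44 in the spleen (log2 8.69 ± 1.41, SE, adjusted p = 7.77e-05). Among 26 genes of lysosomal amino acid sensing by mTORC1 the counts were 7 and 5, 8 and 7, and 14 and 6 (medians 0.09, -0.07 and 0.46, against -0.05, 0.00 and -0.04 for all genes). The share called was 46.2%, 57.7% and 76.9%, against 35.7%, 38.8% and 64.2% of all genes. Fnip2 and Sesn3 had the largest called differences between brain and spleen, at log2 3.37 and -2.26.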

How the data were processed

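RNA from 16 libraries of sorted cells was analysed. Per the labels' protocols, tissue was dissociated with enzymes and cells were passed over Percoll and sorted by reporter fluorescence. The values are gene counts as deposited by the authors; per the submitters' processing notes, reads were checked with FastQC 0.11.5 and aligned with STAR 2.5.3a to GRCm38. For the counting program, its strand setting and the annotation release: not given in the sources used here. Names and coordinates come from GENCODE M21 and promoters from RefSeq (GRCm38.p6, 75 of 103 members). Columns were mapped by their names. Counts were fitted in edgeR 4.0.16 (R 4.3.3; TMM scaling, filterByExpr with a minimum of 10, robust glmQLFit, glmQLFTest, two-sided) on all libraries with 1 mean per group, and adjusted over 16345 genes. Replicate values are TMM-scaled CPM. DESeq2 1.42.0, limma-voom (limma 3.58.1), other scalings, filters and left-out libraries were alternatives. The model was also run on simulated counts that gave all groups the same spread for each gene. That run does not cover groups that differ in spread, and its outcome is not given here. Within groups, every pair of libraries differed by more than sampling noise (chi-square per degree of freedom at least 10.2). Some results are not reported here. Members and lists were chosen with earlier results of these data known. Named in each comparison were up to 8 called members per direction with at least 5 CPM and no overlap, the 12 most abundant members, and members with textbook roles in macrophages, dendritic cells or brain, and for each other list up to 3 called genes per direction.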

Additional observations from a re-analysis of the deposited data

Results flagged for a closer look

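A sample far from the other 3 of its group was looked for in 160 sets of 4 libraries (40 named carriers in 4 groups), and 11 were found; chance alone gives about 1 in 20. Of these, 7 were in ischemic microglia. Replicate 2 of that group stood above the others for Slc2a6 (217 CPM against 148 to 158), Slc2a9 (55.2 against 30.0 to 32.5) and Slc36a1 (247 against 159 to 171). Replicate 3 stood above for Slc1a2 (15.4 against 7.55 to 8.82) and Slc1a4 (7.06 against 4.36 to 4.44) and below for Slc16a9 (1.80 against 2.33 to 2.43). Replicate 4 was below for Slc5a6 (6.56 against 8.29 to 8.56). In control microglia, replicate 2 was above for Slc16a7 (69.4 against 57.6 to 59.3). In CD11c cells of the brain, replicate 1 had Slc6a12 at 0.334 CPM and the others at 0. In the spleen, replicate 4 was above for Slc38a10 (149.5 against 122 to 125) and replicate 2 for Slc6a8 (1.72 against 1.29 to 1.37).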

How the results depend on the processing

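Of 106 gene results named by the rule, 65 were called; none of the 65 reversed under any alternative run, and 54 kept direction and call under every one. Leaving out 1 library gave 8 to 10 members higher and 15 to 23 lower in brain CD11c cells against ischemic microglia, 17 to 18 and 6 to 13 in ischemic against control microglia, and 30 to 34 and 13 to 17 in brain against spleen. Library totals alone moved the median of all genes to 0.10, -0.20 and -0.30 in these comparisons and the share of calls that were higher to 62.4%, 33.5% and 34.9%; members then numbered 10 higher and 16 lower, 17 and 17, and 28 and 18. No paired analysis was possible because replicate numbers follow accession order and, within a mouse line, the titles of the groups compared share only 1 number, between 1 brain and 1 spleen CD11c library.

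Uncalled results changed sign as follows (log2). Brain CD11c against ischemic microglia: limma-voom gave -0.38 for Slc6a12 and -0.065 for Slc16a10, which was -0.0063 with no filter and -0.0186 with the filter of 50 counts in 4 libraries; brain replicates 3 and 4 alone gave -3.74 for Slc6a12, -0.68 for Slc16a10, -0.75 for Slc7a2, -0.29 for Slc43a2 and 0.22 for Slc5a3; replicates 1 and 2 alone gave 0.026 for Slc16a7, -0.10 for Slc7a5, 0.24 for Slc16a3 and -0.26 for Slc38a9. Ischemic against control microglia: library totals gave -0.0772 for Slc7a2, and Slc7a7 was 0.0040 with RLE and DESeq2, 0.037 with no filter and 0.028 with 2 groups. Brain against spleen: library totals gave -0.0600 for Slc16a10 and -0.0537 for Slc38a1; no filter gave 0.0074 for Slc1a4 and 0.035 for Slc38a9, which was 0.0043 with RLE and 0.0044 with DESeq2; replicates 3 and 4 gave 0.35 for Slc38a9, -0.56 for Slc16a10 and 0.25 for Slc1a3; replicates 1 and 2 gave 0.033 for Slc7a1 and -1.36 for Slc1a1. The causes were not tested. Leaving out 1 library gave, for brain CD11c against ischemic microglia, Slc16a10 -0.17 to 0.25, Slc16a3 -0.35 to 0.087, Slc5a3 -0.32 to 0.025 and Slc6a12 -3.73 to 1.54; for the microglia groups, Slc7a2 -0.0717 to 0.16 and Slc7a7 -0.0630 to 0.013; and for brain against spleen, Slc16a10 -0.0085 to 0.42, Slc1a1 -0.15 to 0.65, Slc1a3 -0.35 to 0.088, Slc1a4 -0.29 to 0.17 and Slc38a9 -0.20 to 0.13. Depth limits members under about 1 CPM, where 3 counts are 0.0617 to 0.0949 CPM per library, a floor for counting error only.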
